A study of Mus musculus with 16 samples.

Results

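The motile cilia genes of the mouse lung were followed across 4 groups of mice, with or without a working Vldlr gene, which encodes a lipoprotein receptor, and with or without exposure to house dust mite (HDM), an airborne allergen. Genes were taken by a rule on their names, which was set with earlier results of these data known. They were those whose symbol starts with Dnah, Dnaic, Dnai, Dnal, Rsph, Tekt, Cfap, Drc or Spag followed by a digit, and also Foxj1, Sntn, Tppp3 and Dnali1. This gave 79 of the 19938 genes that had a probe set of their own. All 79 were tested, because no filter on low values was applied, and 72 lay above the 25th and 43 above the 50th percentile of level over all genes.

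Lung RNA was measured on 16 Affymetrix arrays that probe whole transcripts. Each group had 4 arrays, and each array is a separate biological replicate by its title. Wild-type (WT) mice were of the B6129SF2/J strain, and the knockout (KO) mice were Vldlr-/-, with no strain given in their labels. Loss of Vldlr and a difference of strain therefore cannot be told apart in any comparison of the genotypes. HDM was given through the nose at 25 µg per dose on 5 days of each week for 6 weeks, and the saline groups received the same 10 µl volume on that schedule. The 4 groups were thus WT saline, WT HDM, KO saline and KO HDM. Neither the age of the mice nor the part of Vldlr that was removed is stated in the labels. Levels are log2 values per probe set, so a difference of 1 is a doubling. Levels of different genes cannot be set against each other as amounts of RNA, and percentiles of level rank only the probe set signal.

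Motile cilia are the beating hairs of the ciliated cells that line the conducting airways and move mucus out of the lung. Each is built on an axoneme, a ring of doublet microtubules around a central pair. Outer and inner dynein arms on the doublets drive the beat, and radial spokes, the central pair and the nexin-dynein regulatory complex control it. The transcription factor Foxj1, together with factors of the RFX family, switches on most of these genes, which are used by few lung cells other than ciliated cells. Several members of the gene families serve mainly the sperm flagellum, and some Spag genes carry only the name of a sperm antigen and belong to no axoneme.

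The labels were checked first. Vldlr was at 10.59 ± 0.11 (SD, n = 4) in WT saline and 9.83 ± 0.07 in KO saline, a difference of -0.76 (SE 0.12, limma adjusted p = 0.00697), and at 10.56 ± 0.27 and 9.63 ± 0.21 under HDM (-0.93, SE 0.12, adjusted p = 0.000277). Of 12 defining markers of ciliated cells outside the gene set, all 12 were on the arrays and 8 lay above the 50th percentile of level. Array medians over all probe sets ran from 8.78 to 8.85. Of the 16 arrays, 2 stood apart for the cilia genes. WT HDM 2 held the highest value of 43 of the 79 genes, against 13% of all genes, and KO HDM 1 held the lowest value of 51 of 79, against 7.4% of all genes. WT HDM 2 also held the lowest value of 21.6% of all genes, the largest such share of any array, so it stood apart over all genes too. KO HDM 1 held the highest value of 6.87% of all genes.

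In KO lungs exposed to HDM, a part of the motile cilia genes was lower than in KO lungs given saline, and a part was lower than in WT lungs given HDM. Against KO saline, 24 of 79 were lower and 1 was higher at a limma adjusted p under 0.05, where 3.88% of all genes were lower, 4.96% higher and 8.84% either. Against WT HDM, 27 were lower and 0 higher, where 5.83% of all genes were lower, 5.84% higher and 11.7% either; at an unadjusted p under 0.05 there were 57 lower and 2 higher, against 12.7% and 13.8% of all genes. Both comparisons use the same KO HDM arrays, so they are not independent of each other. Because the RNA came from whole tissue, fewer ciliated cells and less RNA per ciliated cell cannot be told apart in any of these values. In WT lungs HDM gave 7 higher and 2 lower genes, where 7.86% of all genes were higher, 9.72% lower and 17.6% either. Between the genotypes under saline 1 gene was lower and 0 higher, where 0.14% of all genes were lower, 0.0903% higher and 0.231% either. Over the 5 comparisons, 45 of the 79 genes passed in at least 1 and 34 in none, and 28.7% of all genes passed in at least 1.

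**Figure D1:**
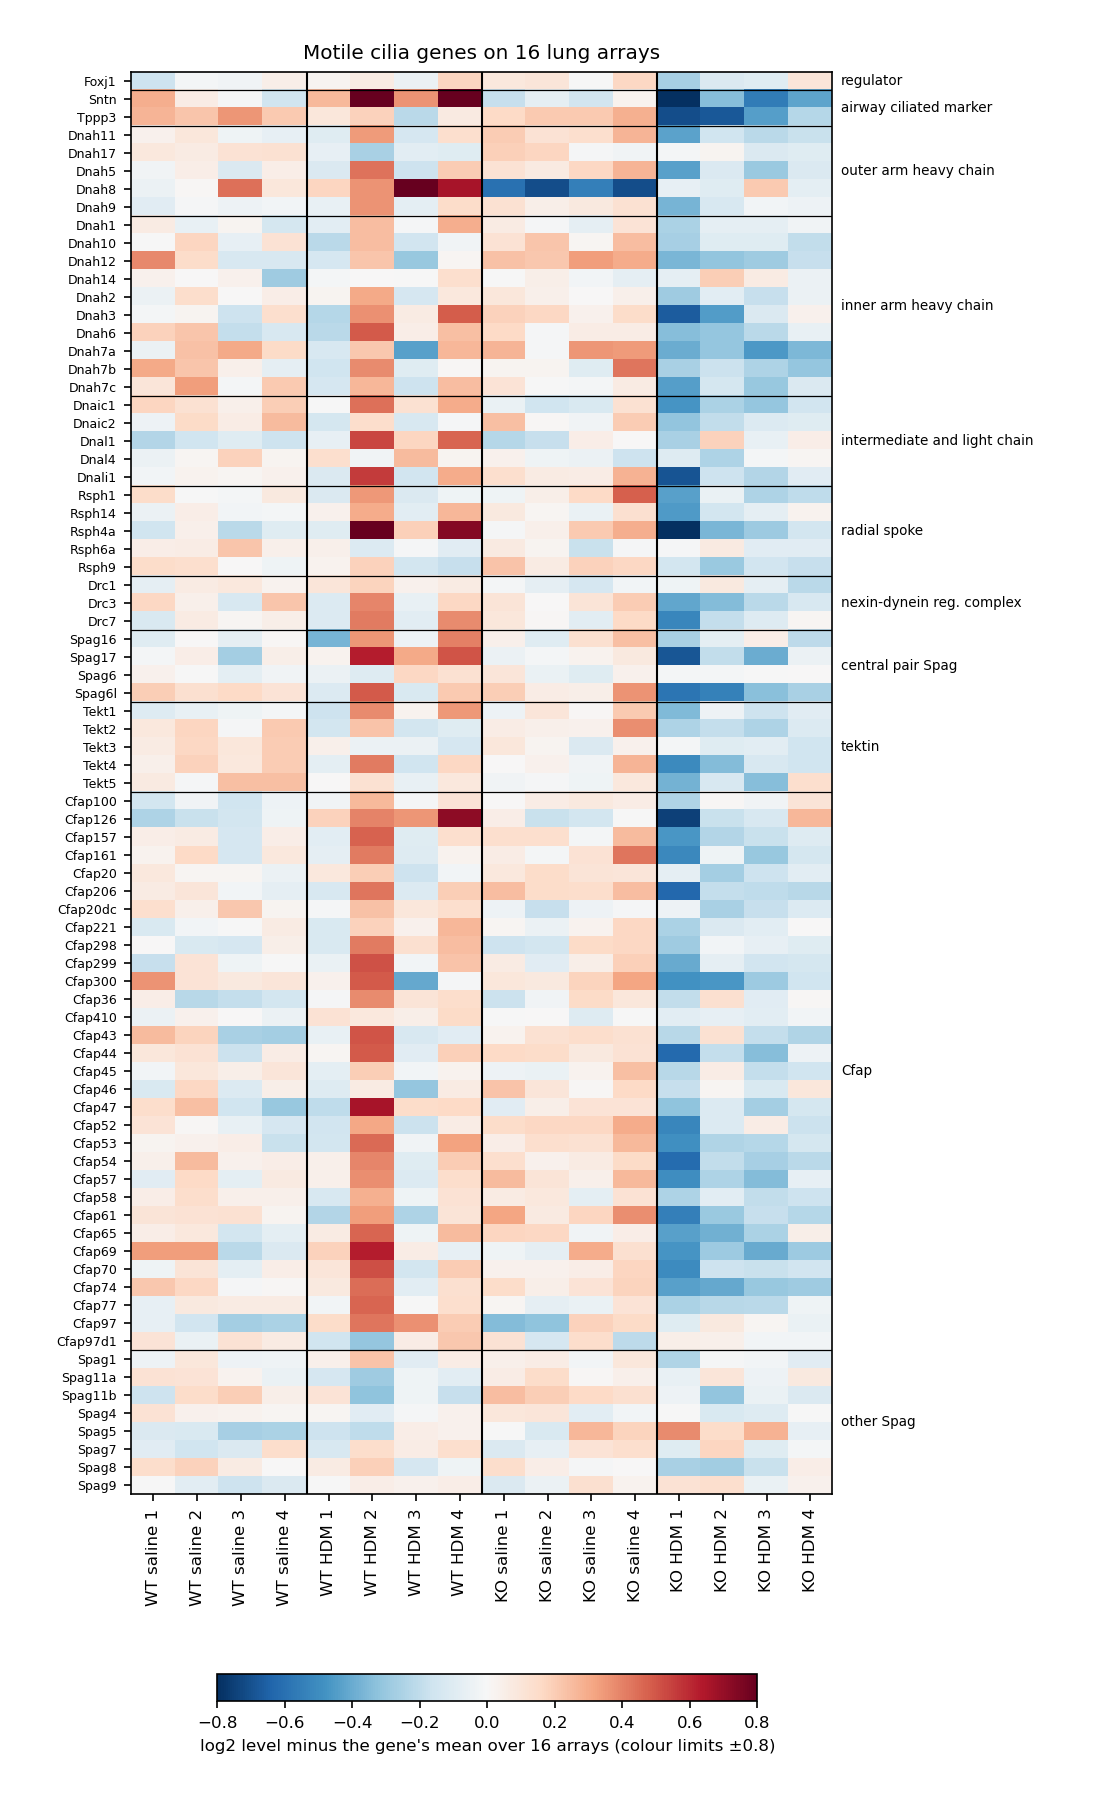
Levels of the 79 motile cilia genes (rows, by role) on the 16 arrays (columns), as log2 level minus the gene's mean over 16 arrays, with the colour scale limited to ±0.8. WT HDM 2 and WT HDM 4 are mostly red, KO HDM 1 is mostly blue, and Dnah8 has its own pattern, with its lowest values on the KO saline arrays.

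The sequence before the gene start was examined for the motifs of the 2 factor families named above, because so many members moved together. Windows of 300 bases, 250 before and 50 after the start, came from RefSeq (GRCm38.p6) for 65 of the 79 genes. The core of the RFX motif, GTTGCC, searched on both strands, was found in 24 of 65 (36.9%), against 14.1% of 27025 genes with a window. Among genes lower in either of the KO HDM comparisons it was in 12 of 30 (40%), and among the other members in 12 of 35 (34.3%). A longer form, the core with atgg directly after it, was in 2 of 65 (3.08%), against 0.633% of genes. The forkhead motif TGTTTAC, searched on both strands, of the kind Foxj1 binds, was in 5 of 65 (7.69%), against 4.05%. These are matches of letters and show no binding.

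The core was in 12 of the 30 members lower in KO HDM that had a window. The 150 bases before the start of 5 of these 12 are printed here, 5′ to 3′ on the strand of the gene. The core, on either strand, is in capitals. All 5 hold the core, so they do not stand for the lower members without it. Sntn (chr14:13670726-13670875, plus strand, core at -66) and Cfap74 (chr4:155409090-155409239, plus strand, core at -37) are the 2 members with the longer form, in which atgg follows the capitals. Cfap20dc (chr14:8666291-8666440, minus strand, cores at -102 and -94) holds both orientations side by side, Cfap44 (chr16:44394649-44394798, plus strand, cores at -129 and -19) holds 2 cores far apart, and Dnaic2 (chr11:114727269-114727418, plus strand, core at -26) holds 1 close to the start. Positions count from the gene start to the first base of the core. Cfap74 has another annotated start, from which the same longer form lies at 13, after the start, with a core on the other strand at -116.
Sntn: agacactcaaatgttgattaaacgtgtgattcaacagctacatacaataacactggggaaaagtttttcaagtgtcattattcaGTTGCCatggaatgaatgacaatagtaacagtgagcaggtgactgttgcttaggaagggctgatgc
Cfap74: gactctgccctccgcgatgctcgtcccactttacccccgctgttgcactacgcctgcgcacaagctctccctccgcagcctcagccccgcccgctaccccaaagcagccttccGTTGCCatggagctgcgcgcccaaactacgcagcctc
Cfap20dc: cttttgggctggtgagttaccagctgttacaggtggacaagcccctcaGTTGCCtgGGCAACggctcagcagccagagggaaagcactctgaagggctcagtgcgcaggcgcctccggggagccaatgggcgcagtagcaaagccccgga
Cfap44: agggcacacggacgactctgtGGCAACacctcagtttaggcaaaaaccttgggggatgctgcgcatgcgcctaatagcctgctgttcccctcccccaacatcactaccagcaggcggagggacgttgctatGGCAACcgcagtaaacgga
Dnaic2: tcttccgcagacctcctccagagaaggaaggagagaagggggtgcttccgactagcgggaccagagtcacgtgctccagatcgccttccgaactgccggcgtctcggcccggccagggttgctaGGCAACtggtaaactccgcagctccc

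HDM was first set against saline within the KO mice, where the receptor is missing. Genes of nearly every part of the axoneme fell: the microtubule protein Tppp3 and members of the outer and inner dynein arms, radial spokes, the central pair, tektins and 11 of 31 Cfap proteins. The falls were modest, between 1.2-fold and 1.66-fold. The median change of the 79 genes was -0.24, against -0.03 over all genes. A negative change was seen in 72 of 79, and in 11850 of all 19938 genes. In 39 of 79 all 4 KO HDM arrays lay below all 4 KO saline arrays, which held for 7.33% of all genes, and in 1 of 79 all lay above, against 6.71% of all genes.

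Tppp3, a microtubule-binding protein abundant in ciliated cells, fell most. Its level was 12.74, 12.79, 12.79 and 12.86 on KO saline arrays 1 to 4 and 11.87, 11.90, 12.14 and 12.35 on KO HDM arrays 1 to 4. The groups did not overlap, and every KO HDM array was also below every WT array of either treatment. The change was -0.73 (SE 0.10, 1.66-fold, limma adjusted p = 0.000157). Sntn, a protein of the ciliary tip, was at 10.24, 10.35, 10.27 and 10.45 under saline and 9.45, 10.08, 9.86 and 10.00 under HDM. All 4 HDM values were below all saline values, but the change of -0.48 did not pass (SE 0.16, adjusted p = 0.0665).

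Foxj1 itself was at 9.72, 9.73, 9.63 and 9.80 on the KO saline arrays and 9.37, 9.52, 9.54 and 9.73 on the KO HDM arrays. The groups overlapped through KO HDM 4, and the change of -0.18 did not pass (SE 0.07, adjusted p = 0.137). It did not pass in any of the 5 comparisons. On the WT arrays Foxj1 was at 9.47, 9.62, 9.61 and 9.68 under saline and 9.66, 9.70, 9.59 and 9.81 under HDM, and these overlapped too.

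Of 5 outer arm heavy chains, the motor subunits of the outer dynein arm, 2 fell and 1 rose. Dnah5 fell by 0.40 (SE 0.11, adjusted p = 0.0276) and Dnah11 fell by 0.43 (SE 0.09, adjusted p = 0.00627), both motors of respiratory cilia. Dnah9, the third respiratory outer arm motor, was at -0.23 and did not pass (adjusted p = 0.118). Dnah8, which serves the sperm flagellum, rose from 8.26, 8.15, 8.31 and 8.15 on the KO saline arrays to 8.79, 8.76, 9.07 and 8.78 on the KO HDM arrays. The groups did not overlap, and the change was 0.63 (SE 0.13, 1.55-fold, adjusted p = 0.00565). It was the 1 member that rose with HDM in both genotypes.

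Of 10 inner arm heavy chains 3 fell, and 9 had a negative change. Dnah12 was at 11.55, 11.53, 11.65 and 11.61 under saline and 10.95, 11.00, 11.03 and 11.13 under HDM in the KO. The change was -0.56 (SE 0.11, adjusted p = 0.00389), and no HDM array reached a KO saline array. Dnah7a was at 8.33, 8.05, 8.41 and 8.40 under saline and 7.66, 7.75, 7.60 and 7.70 under HDM, a change of -0.62 (SE 0.12, adjusted p = 0.00442). Here too the groups were separate, with the 4 HDM values close together. Dnah7a, Dnah7b and Dnah7c are near-identical copies whose probes may respond to each other's RNA, so the assignment to Dnah7a is uncertain; Dnah7b was at -0.34 and Dnah7c at -0.29, and neither passed. Dnah10 fell by 0.31 (adjusted p = 0.0348). Dnah3 was covered by 33 probe sets, all read on the same arrays, so they are repeated measures of 1 gene and not replicates. All 33 were lower under HDM in the KO, from -0.66 to -0.12 with a median of -0.41, and in WT 22 of 33 were, with a median of -0.05. The probe set used for Dnah3 here was at -0.43 and did not pass (adjusted p = 0.0713).

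Of 5 intermediate and light chains, which anchor and regulate the motors, 1 fell. This was Dnaic2, an intermediate chain of the outer arm (-0.29, SE 0.08, adjusted p = 0.0386). Dnali1, a light chain of the inner arms, was at 10.30, 10.23, 10.22 and 10.44 under saline and 9.47, 10.00, 9.93 and 10.07 under HDM in the KO. All HDM arrays were lower, with KO HDM 1 lowest, and the change of -0.43 did not pass (SE 0.14, adjusted p = 0.0617).

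Among 5 radial spoke genes 2 fell, the spoke head proteins Rsph1 (-0.40, SE 0.11, adjusted p = 0.0358) and Rsph9 (-0.35, SE 0.07, adjusted p = 0.0065). Rsph4a, also of the spoke head, was at -0.60 but with a wider error (SE 0.19, adjusted p = 0.0601), and Rsph6a, its sperm counterpart, was near 0 and did not pass. Of 3 genes of the nexin-dynein regulatory complex Drc3 fell (-0.38, adjusted p = 0.0266), Drc7 was at -0.24 and did not pass, and Drc1 was near 0.

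The central pair protein Spag6l was at 10.84, 10.70, 10.69 and 11.00 on the KO saline arrays and 10.06, 10.10, 10.31 and 10.38 on the KO HDM arrays. The groups were separate, with a change of -0.59 (SE 0.12, 1.51-fold, adjusted p = 0.00365). It was the 1 of 4 central pair Spag genes that fell. Of 5 tektins, filament proteins inside the doublets, Tekt2 fell (-0.33, adjusted p = 0.0316), and Tekt4 was at -0.36 with an adjusted p = 0.051. Of the 8 other Spag genes, 1 fell, Spag11b (-0.31, adjusted p = 0.0436), an epididymal defensin-like gene with a near-identical copy, Spag11a, that was at -0.04. The median change of these 8 was -0.06. Spag5, a spindle protein of dividing cells, was at 0.10 and Spag9, a scaffold of kinase signalling, at 0.06.

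Of the 31 Cfap genes 11 fell and 0 rose. Cfap61, of the complex at the base of the radial spokes, was at 10.87, 10.63, 10.73 and 10.93 under saline and 10.01, 10.26, 10.37 and 10.33 under HDM. Cfap74, a central pair protein, was at 9.88, 9.78, 9.84 and 9.91 under saline and 9.30, 9.32, 9.43 and 9.45 under HDM. For both genes all HDM values were below all saline values, with a change of -0.55 for Cfap61 (SE 0.11, adjusted p = 0.00504) and -0.48 for Cfap74 (SE 0.09, adjusted p = 0.00235). Cfap54, also of the central pair, fell by 0.42. Cfap206, which docks dyneins at a spoke base, fell by 0.51 and Cfap57, an inner arm factor, fell by 0.46. Among proteins of the doublet wall, Cfap53 fell by 0.42, Cfap52 fell by 0.38 and Cfap20 fell by 0.26, while Cfap45 and Cfap161, of the same wall, were at -0.18 and -0.39 and did not pass. Cfap44, of the tether that holds dynein heads to the doublet, fell by 0.43, and its partner Cfap43 was at -0.24 and did not pass. Cfap300, needed to load dynein arms, fell by 0.52, and Cfap157, a protein best known from sperm, fell by 0.37. The adjusted p-values of these 9 falls without array values ran from 0.00847 to 0.0391.

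Of the 43 members above the 50th percentile of level 19 fell (44.2%), and of the 36 below it 5 fell (13.9%). Over all genes 5.11% fell above that percentile and 2.66% below it. The count of 25 genes that changed in the KO moved with single arrays. It was 12 without KO saline 4, 13 without KO HDM 1, 15 without KO HDM 3, and 16 without KO HDM 2, KO saline 1 or KO saline 2. It was 34 without KO HDM 4. With WT HDM 2 and KO HDM 1 left out together, an alternative added after the values were seen, 24 of the 25 calls were kept. Without KO HDM 1 alone, 13 of the 25 were kept. WT HDM 2 is in neither group of this comparison and enters it only through the estimate of the spread that all groups share.

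**Figure D2:**
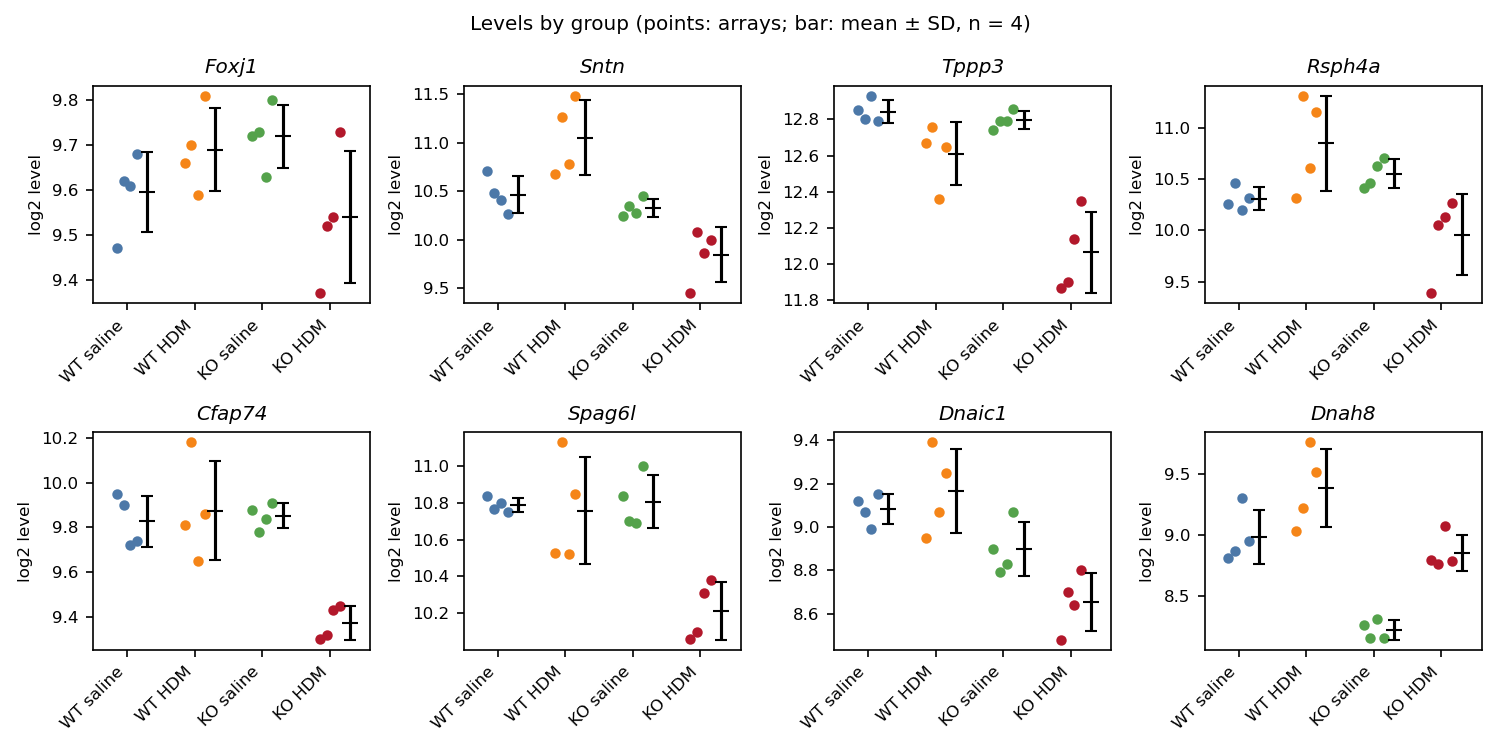
Log2 levels of 8 genes on each array by group (points), with the group mean ± SD (black bar, n = 4) beside them; each panel has its own axis, which does not start at 0. KO HDM is the lowest group for Tppp3, Cfap74, Spag6l, Sntn, Rsph4a and Dnaic1, the groups overlap for Foxj1, and Dnah8 is lowest in KO saline.

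Further lists of ciliated cell and cilium genes also held genes that were lower under HDM in the KO. Of 34 further ciliated cell markers 12 were lower and 0 higher, with a median of -0.37 and a negative change in 34 of 34, among them Spata18 (-0.67), Ccdc113 (-0.51) and Dcdc2a (-0.37). Of 20 further genes of the central pair and axoneme 7 were lower, such as Nme5 (-0.61), of the radial spokes, and Ak7, an adenylate kinase of cilia (-0.60), and Nme7 was higher (0.33). Of 13 genes for dynein docking and the axonemal ruler 4 were lower, including the ruler protein Ccdc39 (-0.65) and the doublet protein Enkur (-0.66). Of 15 dynein assembly factors 5 were lower, for example Lrrc6 (-0.52) and Zmynd10 (-0.45). Of 27 genes of intraflagellar transport, which carries parts along all cilia, motile or not, 7 were lower, including Ttc26 (-0.46). Of 18 regulators of multiciliogenesis, the programme that makes ciliated cells, 1 was lower, Gmnc (-0.55), an early factor of that programme. Of all genes 3.88% were lower and 4.96% higher in this comparison, and the share of the regulators, 5.56%, was near that.

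Genes of other cells moved on the same arrays. Of 16 club cell genes, the secretory neighbours of ciliated cells, 9 were lower, including Pon1 (-1.54) and Scgb3a2 (-1.05), and 1 was higher. The mean level of that list ran from 11.66 to 11.74 on the KO saline arrays and from 11.20 to 11.73 on the KO HDM arrays. Of 12 alveolar type 1 genes 8 were lower, such as Aqp5 (-0.59), and so were 1 of 12 alveolar type 2 genes, 2 of 11 of basal and squamous cells and 3 of 15 general epithelial genes, such as Krt19 (-0.81). The mean level of the general epithelial list was 10.58 to 10.69 on the KO saline and 10.27 to 10.51 on the KO HDM arrays. Of 13 goblet cell genes 6 were higher and 1 lower. Of 17 leukocyte genes 7 were higher, including the eosinophil genes Alox15 (2.91) and Ccr3 (2.60), and their mean level was 10.65 to 10.82 under saline and 11.18 to 11.63 under HDM. The part of these shifts in the falls of cilia genes was not tested. Over all genes 3.88% were lower and 4.96% higher.

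The cilia and leukocyte genes were also set side by side on each array. The median of the 79 genes, each gene centred on its mean over 16 arrays, was -0.32, -0.14, -0.17 and -0.10 on KO HDM arrays 1 to 4, and 0.04 to 0.13 on the KO saline arrays. The leukocyte median was 0.47, 0.30, 0.39 and -0.03 on KO HDM arrays 1 to 4 and -0.09, -0.20, 0.05 and -0.05 on KO saline arrays 1 to 4. On WT HDM arrays 1 to 4 the cilia median was -0.06, 0.34, -0.04 and 0.14. The leukocyte median on these was 0.02, -0.24, 0.16 and 0.12. On the WT saline arrays the cilia median was -0.01 to 0.07 and the leukocyte median -0.30 to -0.10. By its mean level, given above, the leukocyte list was higher on every KO HDM array than on every KO saline array. The mean level of the spermatogenic list, genes of male germ cells, ran from 7.11 to 7.25 under saline and 7.15 to 7.20 under HDM in the KO, with 0 of 18 lower and Ldhc higher (0.22). Of 14 cartilage genes 0 passed in the KO, also at an unadjusted p under 0.05, and the mean level was 8.54 to 8.73 under saline and 8.55 to 8.62 under HDM. In WT under HDM 1 cartilage gene was higher, Chad (0.75), and 2 were lower, and Chad, which is also on the club cell list, was lower in KO than in WT under HDM (-0.53).

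**Figure D3:**
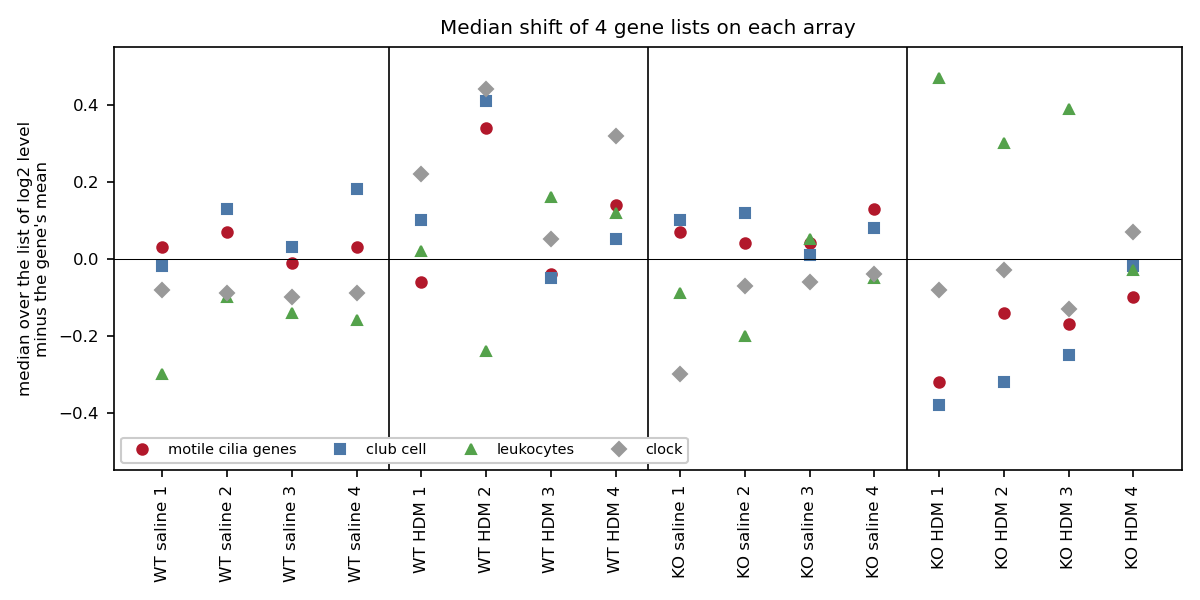
Median over each of 4 gene lists of the log2 level minus the gene's mean over 16 arrays, for every array. The motile cilia genes (circles) and the club cell genes (squares) are highest on WT HDM 2 (0.34 and 0.41) and lowest on KO HDM 1 (-0.32 and -0.38), and the clock genes (diamonds) are above 0 on all WT HDM arrays.

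Setting KO against WT under HDM asked whether lungs without the receptor differed once allergen was given. The 27 lower genes included both airway ciliated markers, 15 of 31 Cfap genes, and members of both dynein arms, the spokes and the central pair. The largest difference was that of Sntn, 2.3-fold. The median over the 79 genes was -0.28, against 0.02 over all genes, with 71 of 79 negative, against 8661 of all 19938 genes. In 20 of 79 all KO HDM arrays lay below all WT HDM arrays, against 5.06% of all genes, and in 0 all lay above, against 5.74%.

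Sntn was at 10.68, 11.26, 10.78 and 11.48 on WT HDM arrays 1 to 4 and, as given above, between 9.45 and 10.08 in KO HDM. The difference was -1.20 (SE 0.16, limma adjusted p = 0.000453), and the groups did not overlap. With the clock score described further on as a covariate, the Sntn difference was -0.76 and did not pass (adjusted p = 0.78). Rsph4a, shown by array because of its size, a choice made after its values were seen, was at 10.32, 11.31, 10.61 and 11.15 in WT HDM and 9.39, 10.05, 10.13 and 10.27 in KO HDM. These groups touched closely, at 10.32 and 10.27, and WT HDM 2 and 4 were the high arrays (-0.89, SE 0.19, adjusted p = 0.0079). Spag17, a large central pair protein, was at 8.65, 9.25, 8.93 and 9.13 in WT HDM and 7.94, 8.43, 8.23 and 8.58 in KO HDM, which did not overlap (-0.69, SE 0.13, adjusted p = 0.00389).

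Tppp3 was at 12.67, 12.76, 12.36 and 12.65 in WT HDM, with its lowest array, WT HDM 3, just above the highest KO HDM array (-0.54, SE 0.10, adjusted p = 0.0029). Dnaic1, an intermediate chain of the outer arm, was at 8.95, 9.39, 9.07 and 9.25 in WT HDM and 8.48, 8.70, 8.64 and 8.80 in KO HDM. Its difference was -0.51 (SE 0.09, adjusted p = 0.00302), with no overlap. Cfap74 was at 9.81, 10.18, 9.65 and 9.86 in WT HDM, all above KO HDM (-0.50, SE 0.09, adjusted p = 0.00283). Spag6l was at 10.53, 11.13, 10.52 and 10.85 in WT HDM, again separate from KO HDM (-0.54, adjusted p = 0.00765).

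Dnali1 was at 10.05, 10.72, 10.01 and 10.46 in WT HDM and overlapped KO HDM through WT HDM 1 and 3, which were close to KO HDM 4 (-0.44, SE 0.14, adjusted p = 0.0454). The other dyneins that were lower were Dnah8 (-0.53), Dnah3 (-0.47) and Dnah11 (-0.30). Drc3 (-0.38) and Tekt4 (-0.37) were the lower genes of their groups. Among Cfap genes, the list was led by Cfap126, a basal body protein also called Flattop (-0.60), and, beside Cfap74, the central pair proteins Cfap69 (-0.56), Cfap54 (-0.46) and Cfap65 (-0.45). Cfap44 (-0.45), Cfap53 (-0.42), Cfap70, an outer arm associated protein (-0.42), Cfap57 (-0.41) and Cfap206 (-0.41) followed. The smaller differences were those of Cfap299 (-0.36), Cfap157 (-0.35), Cfap77, of the doublet wall (-0.33), Cfap20dc (-0.26) and Cfap410, linked to the ciliary base (-0.17). The adjusted p-values from Dnah8 to Cfap410 were between 0.00867 and 0.0439. Spag5 (0.25) had the highest difference of the 79 and did not pass (adjusted p = 0.111).

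Clock genes differed between the same groups. A clock score per array, the mean of output genes such as Dbp, Tef and Per3 minus that of Arntl, Clock and Cry1 after centring each gene, was 0.22 to 0.71 on the WT HDM arrays, -0.15 to 0.07 on the KO HDM arrays and -0.46 to -0.10 on the saline arrays. Of 13 clock genes 7 were lower in KO than WT under HDM, and Dbp, a clock output gene, was at -1.17. With the score as a covariate, 0 of the 79 cilia genes passed in this comparison and the median was -0.04, where 3 of all genes passed, and Cfap157, Cfap44, Cfap70, Dnali1 and Tekt4 turned to small positive values of 0.01 to 0.05. The clock score did not overlap between the 2 genotypes under HDM, so the clock state and the genotype cannot be told apart here. With the same covariate the count in KO HDM against KO saline was 41 of 79, with 40 lower.

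The count of 27 also moved with single arrays. It was 10 without WT HDM 2, 10 without KO HDM 1, 14 without WT HDM 4, 16 without KO HDM 3 and 17 without KO HDM 2, and 5 without WT HDM 2 and KO HDM 1 together. It was 5 when only the 2 groups compared were fitted, so that only their own arrays gave the spread. Without WT HDM 1, WT HDM 3 or KO HDM 4 the count was 39. A fit of only KO HDM and KO saline kept 25 of the 25 calls of that comparison. The spread of the cilia genes within WT HDM was wide, with a median SD of 0.22 against 0.11 over all genes, while in WT saline it was 0.09 against 0.08. In KO saline it was 0.09 against 0.09, and in KO HDM 0.13 against 0.10. The main fit shares 1 estimate of the spread over all 4 groups.

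Outside the gene set, 12 of 34 ciliated cell markers were lower in KO than in WT under HDM, led by Cdhr3 (-0.90) and Lrriq1 (-0.72), and so were 8 of 20 central pair and axonemal genes, among them Wdr63, an inner arm intermediate chain (-0.84). Of 13 docking and ruler genes 2 were lower, Meig1 (-0.83) and Ttc25 (-0.42), of 15 assembly factors 4, such as Pih1d2 (-0.58) and Dnaaf5 (-0.48), and of 27 transport genes 4, led by Ift57 (-0.61) and Ift81 (-0.45). Among 18 regulators 4 were lower and 2 higher, with Myb at -0.39, Rfx2, a member of the RFX family, at -0.27 and the centriole protein Stil at 0.60. Of 16 club cell genes 11 were lower, including Pon1 (-1.28) and Scgb1a1 (-0.94), the main secreted protein of these cells, and 4 of 12 alveolar type 1 and 5 of 12 alveolar type 2 genes were lower. Of 15 general epithelial genes 0 were lower by limma, and 3 at an unadjusted p under 0.05. Of 17 leukocyte genes 4 were higher, with a mean level of 10.85 to 11.37 on the WT HDM and 11.18 to 11.63 on the KO HDM arrays. The part of these cell type shifts in the differences of cilia genes was not tested. Over all genes 5.83% were lower and 5.84% higher in this comparison.

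**Figure D4:**
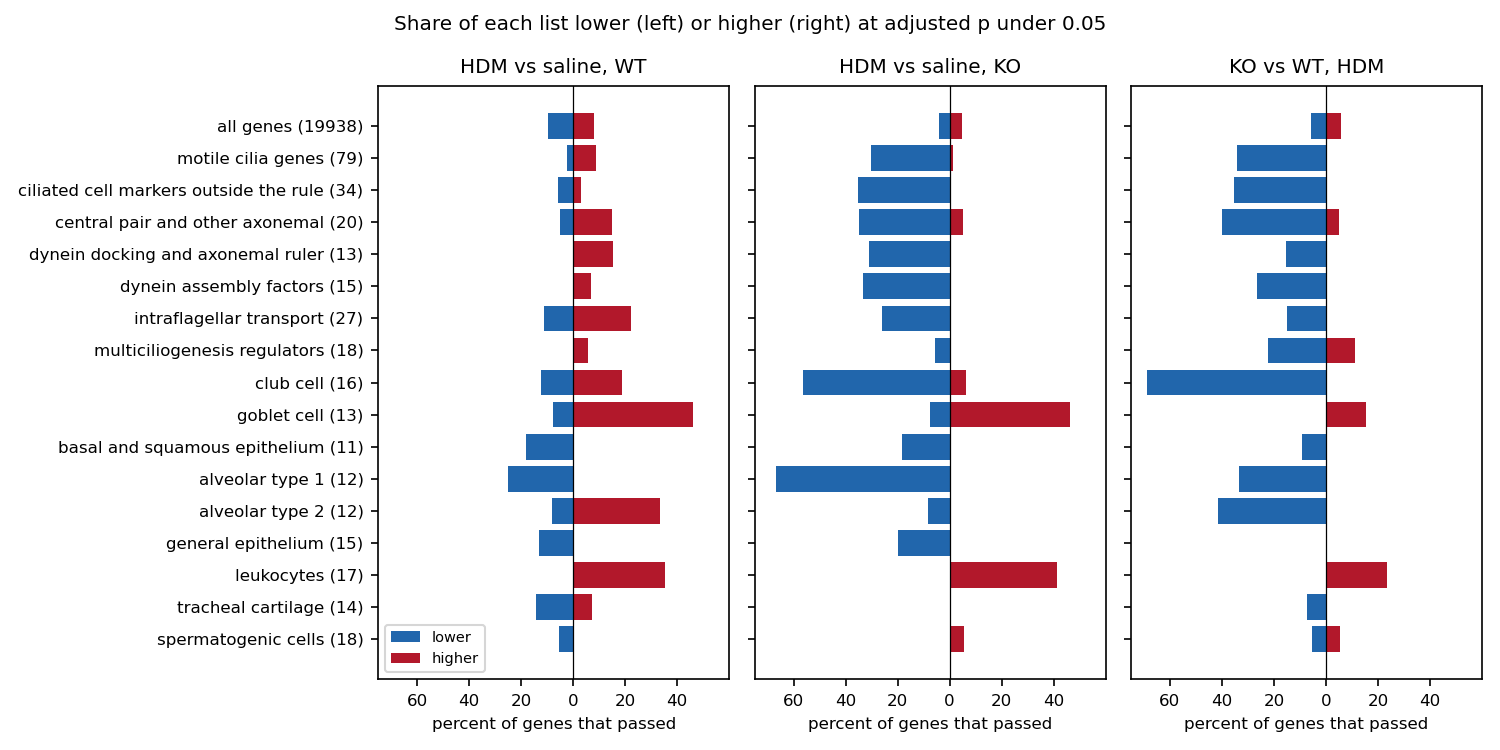
Percent of the genes of each list that were lower (blue, left of 0) or higher (red, right of 0) at a limma adjusted p under 0.05 in 3 comparisons, with the list size in brackets. The motile cilia genes were lower in 30.4% of cases in HDM against saline in KO and 34.2% in KO against WT under HDM, and the 34 other ciliated cell markers in 35.3% in both; these 2 panels share the KO HDM arrays.

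With the receptor present, the question was whether the allergen alone moved the cilia genes. The 79 genes had a median change of 0.08 against -0.05 over all genes, with 53 of 79 positive, against 7576 of all 19938 genes. In 6 of 79 all 4 HDM arrays lay above all saline arrays and in 3 below, against 9.13% and 14.4% of all genes. The 7 genes that rose were Sntn, Cfap126, Cfap97, Dnal1, Spag17, Dnah8 and Cfap36, and the 2 that fell were Dnah17 and Tekt3. The share that rose, 8.86%, was close to the 7.86% over all genes, and 2.53% fell against 9.72% of all genes. Of the 79 genes 0 fell with HDM in both genotypes, and 0 rose in WT and fell in the KO, at the threshold.

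Sntn was at 10.71, 10.48, 10.41 and 10.26 under saline, and its HDM values given above overlapped these through WT HDM 1, at 10.68 (0.59, SE 0.16, 1.5-fold, limma adjusted p = 0.0193). Cfap126 was at 8.57, 8.64, 8.67 and 8.78 under saline and 9.00, 9.21, 9.17 and 9.53 under HDM, with no overlap (0.56, SE 0.15, adjusted p = 0.0192). In the KO it was at 8.87, 8.64, 8.67 and 8.81 under saline and 8.07, 8.64, 8.69 and 9.08 under HDM, where the HDM arrays spread to both sides of saline. Cfap97 rose from 9.37, 9.28, 9.16 and 9.18 to 9.58, 9.86, 9.80 and 9.64 (0.47, SE 0.11, adjusted p = 0.00862). The groups of Cfap97 were separate. Dnal1, a light chain of the outer arm, rose from 9.34, 9.42, 9.48 and 9.41 to 9.51, 10.11, 9.75 and 10.04 (0.44, SE 0.11, adjusted p = 0.0168). All its HDM arrays were above all saline arrays, with WT HDM 2 and 4 highest.

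Spag17 was at 8.61, 8.68, 8.35 and 8.67 under saline in WT, and WT HDM 1, at 8.65, lay within that range (0.41, adjusted p = 0.0377). Dnah8 rose from 8.81, 8.87, 9.30 and 8.95 to 9.03, 9.22, 9.76 and 9.52 (0.40, SE 0.13, adjusted p = 0.0451), with overlap. Cfap36, a partner of the small GTPase Arl3, rose by 0.28 (adjusted p = 0.0453). Dnah17, a sperm outer arm motor, fell from 8.39, 8.37, 8.42 and 8.43 to 8.24, 8.05, 8.22 and 8.21. The groups were separate, with a change of -0.22 (SE 0.06, adjusted p = 0.0217). Tekt3 fell by 0.18 (adjusted p = 0.0441). Rsph4a was at 0.54 and did not pass (SE 0.19, adjusted p = 0.0578).

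In the same comparison 7 of 13 clock genes rose and 1 fell, with Dbp at 1.37. With the clock score as a covariate 0 of the 79 cilia genes passed (39 of all genes passed), the median was -0.21, and Cfap36 (-0.04) and Spag17 (-0.07) changed sign. The clock score did not overlap between WT HDM and WT saline, so clock state and HDM exposure cannot be told apart by this fit. The count of 9 was 2 without WT HDM 4, 3 without WT HDM 2 and 5 without WT saline 1, 2 or 3. WT saline 2 and 3, which stood apart from the other saline arrays in earlier results of these data, gave a count of 0 when both were left out. Among the lists, 6 of 27 transport genes rose and 3 fell, with Ift57 at 0.67 and Ift81 at 0.33, and Meig1 (0.76), Ttc25 (0.44), Dnaaf5 (0.46), E2f5 (0.47) and Lrriq1 (0.51) rose, the last reaching -0.32 and Ift81 -0.22 with the clock score. Of the ciliated cell markers 1 of 34 rose and 2 fell, such as Ccdc113 (-0.38), and of leukocyte genes 6 of 17 rose. Over all genes 7.86% rose and 9.72% fell, and the ciliated cell markers, at 2.94% and 5.88%, were below both shares.

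**Figure D5:**
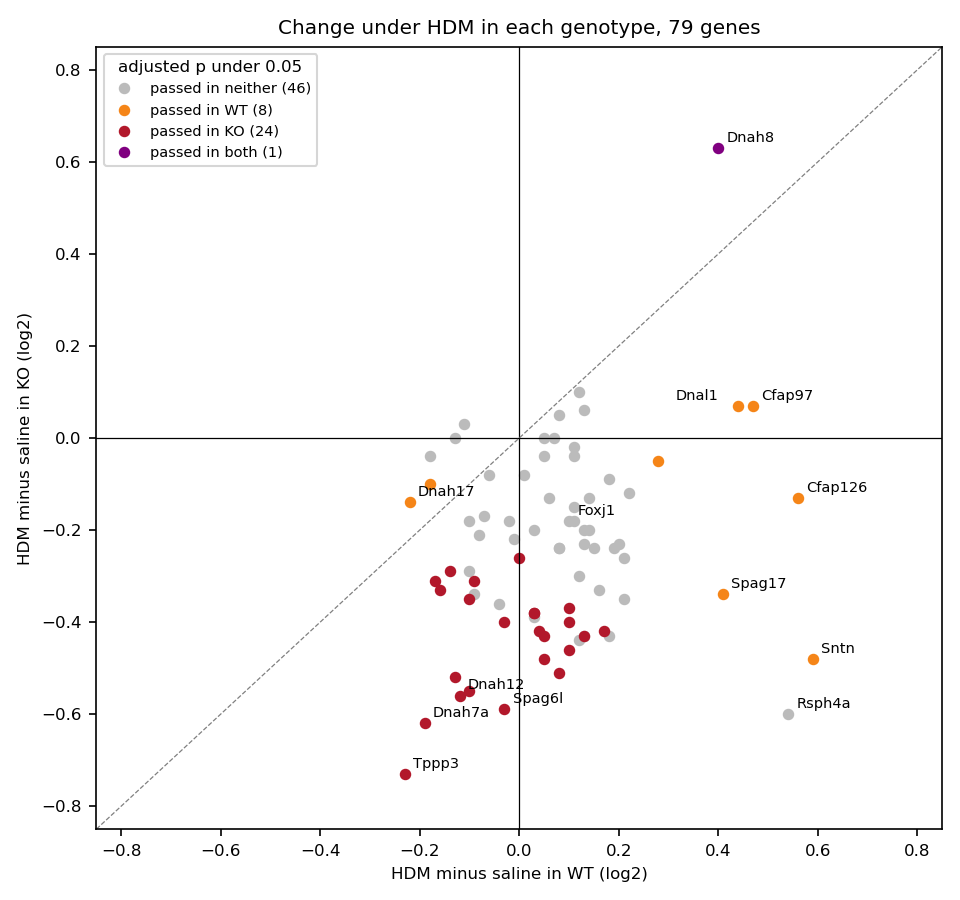
Change under HDM of each of the 79 genes in WT (horizontal axis) and in KO (vertical axis), in log2 units, coloured by where the limma test passed; the dashed line marks equal change. Most points lie below the dashed line; Dnah8 is high in both genotypes, and Tppp3 is lowest in the KO (-0.73).

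The comparison of KO with WT under saline asked how the genotypes differed without allergen, whether by loss of the receptor or by strain. Dnah8 alone passed among the 79 genes. It was at 8.81, 8.87, 9.30 and 8.95 in WT and 8.26, 8.15, 8.31 and 8.15 in KO, and every KO array was below every WT array (-0.77, SE 0.13, 1.7-fold, limma adjusted p = 0.0194). It did not pass without KO saline 1, 2 or 4 (-0.78, -0.74 and -0.74) or WT saline 3 (-0.66), nor without WT saline 2 and 3 together (-0.66), and it was lower in the KO in each of these fits. Under HDM Dnah8 was also lower in the KO (-0.53, adjusted p = 0.0164), and its HDM changes in the 2 genotypes did not pass the interaction test of their difference (0.23, SE 0.19, adjusted p = 0.58). The median over the 79 genes under saline was 0.06, against -0.01 over all genes, and 57 were positive, against 9267 of all 19938 genes. In 9 of 79 all KO arrays lay above all WT arrays and in 2 below, against 3.16% and 3.38% of all genes. Foxj1 was at 0.13 (adjusted p = 0.758), and at an unadjusted p under 0.05 there were 2 lower genes and 1 higher, against 4.2% and 3.61% of all genes.

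Whether the response to HDM differed between the genotypes was tested as an interaction, the change in the KO less the change in WT. It was negative for 73 of 79 genes with a median of -0.33, against 8354 of all 19938 genes and a median of 0.03. Sntn alone passed (-1.07, SE 0.22, limma adjusted p = 0.0367), where 0.802% of all genes passed in either direction, 0.446% lower and 0.356% higher. At an unadjusted p under 0.05 there were 47 lower genes and 0 higher, against 7.71% and 7.93% of all genes. Rsph4a had a slightly larger value with a wider error (-1.14, SE 0.27, adjusted p = 0.0565), and Spag17 was at -0.75 (adjusted p = 0.061), Cfap126 at -0.69 (adjusted p = 0.125), Cfap74 at -0.53 (adjusted p = 0.055) and Tppp3 at -0.50 (adjusted p = 0.0894). Meig1 (-0.88) and Dcdc2a (-0.41) passed among the other cilia genes, and no other gene of the cilium lists did. Of the lists of other cells, 2 of 16 club cell genes passed lower, Scgb3a2 (-0.98) and Chad (-0.94, also on the cartilage list), as did 2 of 12 alveolar type 2 genes, Sftpd (-0.59) and Lamp3 (-0.54), and the clock gene Dbp (-1.27), while 1 of 13 goblet cell genes passed higher, Itln1 (0.89).

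The call for Sntn depended on single arrays. It did not pass in 11 of the 16 fits that left out 1 array, and over the 16 it ran from -1.19 to -0.92. With the clock score as a covariate it was -0.64 and 0 cilia genes passed. That score was higher on every WT HDM array than on all other arrays, so clock state and the WT response cannot be told apart. The count of cilia genes was 0 without any 1 of these 11, which were KO HDM 1 and 3, WT HDM 2 and 4, all 4 KO saline and WT saline 2, 3 and 4. It was 15 without KO HDM 4, 9 without WT HDM 3 and 8 without WT HDM 1, and 14 when limma weighted the arrays by their fit to the group means. Without WT HDM 2 and KO HDM 1 together the median was -0.20 and 0 passed.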

How the data were processed

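Values were deposited by the authors as log2 numbers, 1 per probe set and array, from 50 ng of total lung RNA. The submitters' processing notes name Affymetrix Expression Console and RMA, which corrects background, normalizes across arrays and summarises probes, but no versions. Of 35556 probe sets, 21789 carried 1 symbol in the platform annotation, 1621 several and 12146 none. For each gene the single-symbol probe set with the highest mean was kept (12 of the 79 genes had several).

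All 19938 genes were fitted together in limma 3.58.1 (R 4.3.3; lmFit, contrasts.fit, eBayes) as 4 group means, leaving 12 residual degrees of freedom. The fit was tested on simulated data. Tests were two-sided with Benjamini-Hochberg adjustment over all genes of a comparison and a threshold of 0.05. SE is that of the fit, and SD the spread between arrays, whose number limits precision. The titles call the arrays of a group biological replicates.

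Members and gene lists were chosen with earlier results of these data known. Every member that passed is named. Array values are given for Foxj1, Sntn, Tppp3, Dnali1 and up to 6 passing members with the smallest p per comparison. Of each list at most 4 genes per comparison are named: those with the largest change that passed, or, to make up 2, the smallest p. Npas2, planned for the clock score, had no probe set of its own and did not enter it. Alternatives were other normalizations, filters, variance models, array weights, probe set means, a replicate block, a clock covariate and leaving out arrays.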

Additional observations from a re-analysis of the deposited data

Results flagged for a closer look

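Dnah17 was at 8.05 on WT HDM 2, where the other 3 WT HDM arrays were at 8.21 to 8.24, so that this array lies far from its group. Dnah8 was at 9.07 on KO HDM 3, with the other KO HDM arrays at 8.76 to 8.79. Over the 79 genes, 23 of 316 groups of 4 arrays (7.28%) held an array as far from the rest by Dixon's criterion, which chance alone does in about 5% of groups. The effect of HDM on Sntn differed between the genotypes by -1.07 (SE 0.22, limma interaction adjusted p = 0.0367), with a rise of 0.59 in WT and a change of -0.48 in the KO that did not pass.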

How the results depend on the processing

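The main counts of motile cilia genes were 9 in WT, 25 in KO, 1 under saline, 27 under HDM and 1 for the interaction. Array weights gave 42 in KO and 14 for the interaction, and the clock score 0 in WT, 41 in KO, 0 under HDM and 0 for the interaction, with medians of -0.21 in WT, -0.04 under HDM and -0.09 for the interaction. The 50th percentile filter gave 3 in WT, 0 under saline, 3 for the interaction and a median of -0.35 in KO. The interaction count was 2 with arrays shifted to the same median, with the 25th percentile filter and with the mean of probe sets, and 3 after quantile normalization. A fit of only the 2 groups compared gave 5 under HDM, and it kept 25 of the 25 calls in KO and 6 of the 9 in WT. Without WT saline 2 and 3 together 0 passed in WT, 0 under saline and 0 for the interaction. Without WT HDM 2 and KO HDM 1 together, chosen after seeing the data, 4 passed in WT, 5 under HDM and 0 for the interaction, whose median was -0.20. The cause of these shifts was not tested. Some fits held fewer arrays or genes, and a fit of 2 groups drew the spread from those groups alone.

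Only arrays of the groups compared were left out, 1 at a time, although all arrays share the estimate of the spread. This gave 2 to 12 genes in WT, 12 to 34 in KO, 0 to 1 under saline, 10 to 39 under HDM and 0 to 15 for the interaction. The medians were then -0.01 to 0.11 in WT, -0.28 to -0.19 in KO, 0.03 to 0.08 under saline, -0.35 to -0.20 under HDM and -0.38 to -0.25 for the interaction, so that the median kept its sign in KO, under saline, under HDM and for the interaction but not in WT. Same-numbered samples of different groups did not deviate together (24 correlations from -0.28 to 0.33, 7 above 0.1), so the numbers were not taken as pairs. With the replicate number as a block the interaction count was 4 (Sntn among them), and the counts of the other comparisons stayed within 1.5 times. Sign changes occurred with the clock score, which was higher on every WT HDM array than on all other arrays. In WT they were Cfap36 (-0.04), Spag17 (-0.07), Ift81 (-0.22) and Lrriq1 (-0.32). In KO against WT under HDM they were Cfap157 (0.05), Cfap44 (0.04), Cfap70 (0.04), Dnali1 (0.01), Tekt4 (0.04), Chad (0.03), Ift81 (0.02), Lrrc6 (0.13) and Scgb3a2 (0.06). With 4 arrays per group, small differences can be missed for genes with a wide spread. Within WT HDM the median SD of the cilia genes was 0.22.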

Other observations

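The radial spoke genes Rsph3a and Rsph3b were measured only by 2 probe sets that the annotation assigns to both, so they are not among the 79. On the first the level was 10.13 ± 0.11 (SD, n = 4) in WT saline, 10.29 ± 0.23 in WT HDM, 10.11 ± 0.10 in KO saline and 10.03 ± 0.14 in KO HDM. On the second it was 10.16 ± 0.12, 10.35 ± 0.21, 10.18 ± 0.10 and 10.08 ± 0.14 in the same order. On both, WT HDM had the highest mean and the widest spread, and KO HDM the lowest mean.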
